A study of Mus musculus with 7 samples.

Results

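Transcripts of mouse Ammon's horn, the part of the hippocampus made of the CA fields, were compared by RNA-seq between homozygous Khdrbs3 knockout and wild-type animals. Members were taken by the genotype and tissue in the labels, which gave 3 knockout and 3 wild-type libraries, 6 of the 7 in the series. All mice were adult, given no special treatment and of C57Bl6 background, to which the Tstar null allele (Tstar is another name of Khdrbs3) had been crossed for 8 generations. Polyadenylated RNA of dissected tissue was sequenced, so every value is an average over all cell types in the dissection. The null allele is described without a cell type limit, and no label tells if a library is 1 animal or a pool. The p-values therefore measure the spread between these libraries. Libraries are numbered 1 to 3 within a genotype by name only, and the numbers pair nothing across genotypes.

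KHDRBS3, also called SLM2 or T-STAR, is a STAR-family RNA-binding protein that binds A- and U-rich motifs in pre-mRNA and regulates alternative splicing in neurons. Its paralogs are KHDRBS1 (Sam68) and KHDRBS2 (SLM1). Neurexins are presynaptic adhesion receptors, and use of their alternatively spliced segment 4 exon changes which postsynaptic partners they bind.

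Libraries held 50230733 to 67692326 gene counts (reads anywhere in a gene record, introns included) and 29698245 to 39904606 reads in exon bins, the non-overlapping pieces of annotated exons. The CA1 marker Fibcd1 stood at 176 to 230 CPM (counts scaled to library size) and the dentate granule cell marker Prox1 at 18.5 to 27.7 CPM over the 6 libraries. Levels of different genes do not measure the share of each cell type. Summed over the marker lists used further on, levels were 742 to 827 CPM (CA1) and 725 to 812 CPM (dentate granule cells). Some libraries stood apart. Knockout libraries 1 and 3 were rich in choroid plexus transcripts, as described further on. Wild-type library 1 was high in a ribosomal-type transcript, Gm26924 (8620 CPM against 471 to 722 in the other 5), and in small noncoding RNAs such as Metazoa_SRP (89.9 against 2.68 to 9.68 CPM at the record on the minus strand). Knockout library 2 alone was high in mt-Th (124 against 1.11 to 1.98 CPM), and knockout library 3 alone in Col19a1 (139 against 6.31 to 7.12 CPM).

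A pair of exon bins that carry the splicing results are shown first: the deleted piece of Khdrbs3 and a neurexin exon used more without it. They are given on GRCm38 (mm10), plus strand, from GENCODE transcripts. Khdrbs3 bin 2 is at chr15:68995052-68995170 and Nrxn3 bin 34 at chr12:90199147-90199236, and both are coding sequence.
Khdrbs3 bin 2: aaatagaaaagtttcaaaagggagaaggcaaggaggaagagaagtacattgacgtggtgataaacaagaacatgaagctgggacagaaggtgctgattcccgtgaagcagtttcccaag
Nrxn3 bin 34: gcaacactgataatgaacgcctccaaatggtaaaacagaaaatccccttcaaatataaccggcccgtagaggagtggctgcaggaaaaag
The Khdrbs3 piece is 119 bp, which is 39 codons and 2 further bases. The Nrxn3 exon is 90 bp, or 30 codons with 0 bases over.

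The targeted gene was examined first. In the knockout, reads of Khdrbs3 bin 2 fell to close to 0 while its other 8 bins stood at or above their wild-type level. At gene level Khdrbs3 (chromosome 15, 68928420 to 69093512) stood at 141, 140 and 133 CPM in wild-type and at 196, 201 and 196 CPM in knockout libraries, since the record covers all bins. Bin 2 had 808, 1103 and 964 reads in the wild-type libraries and 6, 9 and 7 in the knockout libraries, so none of the 6 went against its label. Its share of the gene's exon-bin reads went from 11.4% ± 0.32 to 0.0678% ± 0.0117 (SD, n = 3 each). Relative to the gene's other bins this was a log2 change in usage of -7.37, with an SE of 0.14 and an edgeR adjusted p = 5.8e-47. The usage test compares a bin with the other bins of its gene. Bins 1 and 3 to 9 stood between 1.03-fold and 1.77-fold of their wild-type CPM, with the lowest ratio in bin 3, next to the deleted piece, and the highest in bin 9, the last. Within the gene, bin 3 had a usage log2 fold change of -0.39 (SE 0.07, adjusted p = 0.202) and bin 9 of 0.40 (SE 0.07, adjusted p = 0.137). Bin 3 was called with limma-voom (adjusted p = 5.5e-07) and without any 1 of the 3 wild-type libraries (adjusted p = 2.8e-04, 7.2e-04 and 1.4e-04 without libraries 1, 2 and 3). In those 3 fits bin 2, with at least 10 reads in only 2 of the remaining libraries, was no longer among the bins it was compared with.

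**Figure D1:**
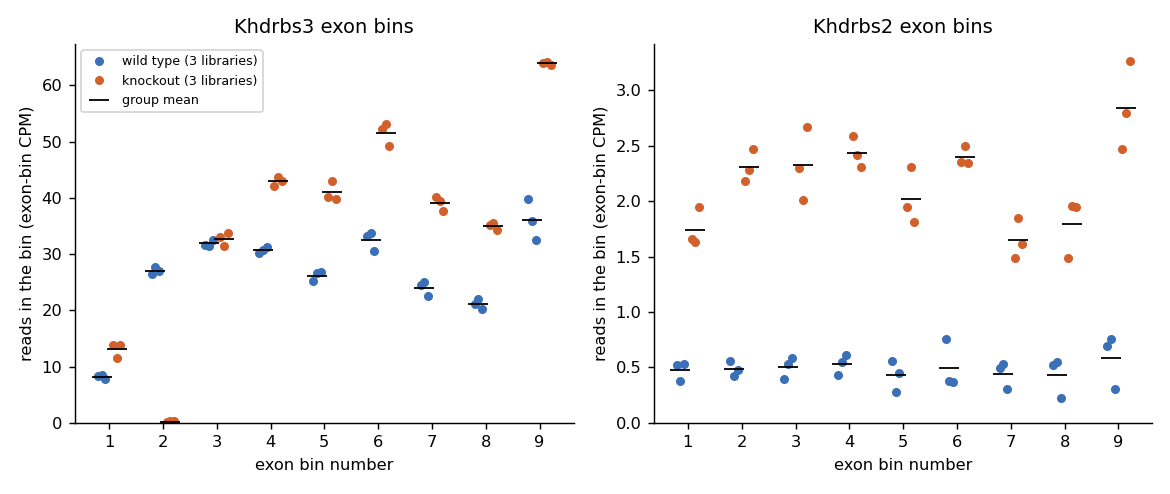
Reads per exon bin (exon-bin CPM, y axis) along the 9 bins of Khdrbs3 (left) and Khdrbs2 (right), each point 1 library and each dash the mean of 3. In Khdrbs3 only bin 2 is near 0 in the knockout, and in Khdrbs2 every knockout point lies above every wild-type point of the same bin.

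All 3 genes of the KHDRBS family were higher in the knockout. Khdrbs2, on chromosome 1 (32172806 to 32657738), stood at 12.4, 9.89 and 11.5 CPM in wild-type and at 19.4, 21.2 and 20.7 CPM in knockout libraries. Khdrbs1, on chromosome 4 (129703164 to 129742303), stood at 85.3, 84.7 and 84.7 CPM against 119, 120 and 124 CPM. In neither gene did the genotypes overlap. The log2 fold changes were 0.86 for Khdrbs2 (SE 0.09, edgeR adjusted p = 0.0054), 0.51 for Khdrbs1 (SE 0.05, adjusted p = 0.0017) and 0.51 for the whole Khdrbs3 record, deleted bin included (SE 0.05, adjusted p = 0.0025). Each was called in all 6 fits that left out 1 library. Without both choroid-rich knockout libraries, 1 and 3, none of the 3 passed, at log2 fold changes of 0.91 for Khdrbs2 (adjusted p = 0.0796), 0.50 for Khdrbs1 (adjusted p = 0.0883) and 0.54 for Khdrbs3 (adjusted p = 0.0796).

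The rise of Khdrbs2 was larger in exons than over the whole gene record. Its 9 exon bins together held 150, 174 and 138 reads in wild-type libraries and 635, 727 and 618 in knockout libraries. In exon-bin CPM this is 4.38 ± 0.53 against 19.5 ± 0.97 (SD, n = 3 each), or 2.16 on the log2 scale (SE 0.11, edgeR adjusted p = 2.4e-06), where the gene record gave 0.86. Single bins ran from 3.65-fold (bin 1) to 4.87-fold (bin 9), so every bin took part. Khdrbs1, by contrast, had the same value in exon bins (0.52, SE 0.05) as over its record, and its well covered bins, numbers 7 to 14, 16 and 17, stood at 1.38-fold to 1.51-fold. In exon-bin CPM, Khdrbs3 gave 0.43 (SE 0.05, adjusted p = 0.0033) with the deleted bin included.

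Exon usage changed in few places. Of 166154 bins tested, 4 were used more (0.00241%) and 1 less (0.000602%) in the knockout at an adjusted p under 0.05, 5 in all (0.00301%), and 5 of 12168 genes passed by the Simes method (0.0411%). At an unadjusted p under 0.05 there were 2852 bins (1.72%). Without knockout library 3, 7 bins were used more, and without wild-type library 2 or knockout library 2, 2 were used less. With all libraries in the fit, the bin used less is that of Khdrbs3 itself, and those used more include bins of Nrxn2, Nrxn3 and Apoe.

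Nrxn2 bin 44 was used more in the knockout. It had 131, 174 and 179 reads in wild-type libraries against 581, 542 and 463 in knockout libraries. All knockout libraries lay above all wild-type libraries. As a share of Nrxn2 exon-bin reads the bin rose from 1.47% ± 0.052 to 5.05% ± 0.159 (SD, n = 3 each), which gave a usage change of 1.78 on the log2 scale (SE 0.11, edgeR adjusted p = 1.1e-34). The neighbouring pieces had usage values near 0, -0.02 (SE 0.09) for bin 43 and -0.09 (SE 0.09) for bin 45, and neither was called. Bin 43, of 84 bp, held 573, 772 and 755 reads in the wild type and 699, 690 and 593 in the knockout. Bin 45, of 282 bp, held 719, 947 and 968 against 847, 843 and 672 reads. As shares of the gene's reads the genotypes overlapped in bin 43 but not in bin 45, at 7.93%, 7.80% and 8.26% against 7.34%, 7.61% and 7.56%. Per base, bin 44 had 31.3% ± 0.64 of the reads of these neighbours in the wild type and 110% ± 3.41 in the knockout. This ratio exceeds 100% and is not an inclusion level, since coverage differs between exons.

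Nrxn3 bin 34 behaved in the same direction at lower counts. It had 45, 63 and 63 reads in the wild type and 152, 189 and 132 in the knockout. The genotypes did not overlap, and the share rose from 0.843% ± 0.082 to 2.25% ± 0.139 (SD, n = 3 each), which gave 1.42 on the log2 scale (SE 0.16, edgeR adjusted p = 1.5e-11). Its neighbours, bins 33 (172 bp) and 35 (308 bp), held 157, 195 and 176 reads and 300, 324 and 339 reads in wild-type libraries. In knockout libraries they held 173, 226 and 171 reads and 300, 389 and 272 reads, and the genotypes overlapped in both, in reads and in shares. Per base the bin stood at 61.0% ± 6.98 of its neighbours in the wild type and 163% ± 7.18 in the knockout. Of the annotated transcripts that span the exon and could be matched, 5 of 6 hold Nrxn3 bin 34.

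The bins of Nrxn2 and Nrxn3 were called in all 6 fits with 1 library left out, with limma-voom, and with the choroid plexus level as a covariate. Each was the only bin called in its gene, of 42 tested in Nrxn2 and 39 in Nrxn3. At gene level neither was called, with log2 fold changes of -0.02 (Nrxn2) and 0.09 (Nrxn3).

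**Figure D2:**
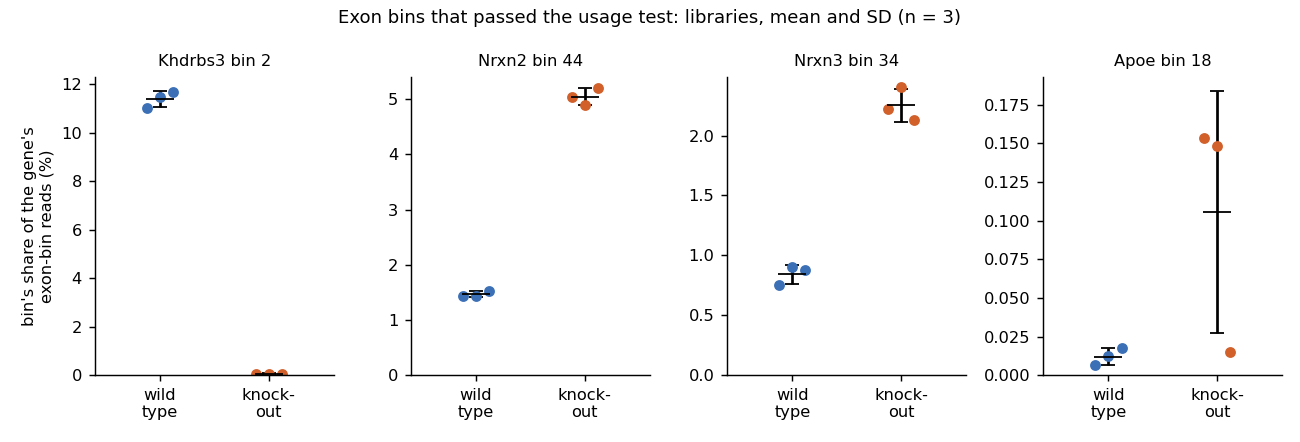
Share of the gene's exon-bin reads (%, y axis, starting at 0) in the Khdrbs3, Nrxn2, Nrxn3 and Apoe bins that passed the usage test, with each library as a point and the mean ± SD of 3 libraries in black. The Nrxn2, Nrxn3 and Khdrbs3 bins separate the genotypes completely, and in Apoe bin 18 one knockout library lies within the wild-type range.

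Bin 18 of Apoe was used more as well. Apoe encodes apolipoprotein E and is expressed mainly by astrocytes. The bin had 6, 14 and 17 reads in the wild type and 148, 135 and 12 in the knockout. Knockout libraries 1 and 2 were high and library 3 lay within the wild-type range, so the genotypes overlapped. Usage was higher by 3.14 on the log2 scale (SE 0.38, edgeR adjusted p = 1.2e-07), and limma-voom did not call it (adjusted p = 0.727). The bin held 0.153%, 0.148% and 0.0151% of the gene's reads in the 3 knockout libraries.

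The other genes listed as reported KHDRBS3 splicing targets, Stxbp5l, Kif21a, Cask, Dgkb and Enpp2, did not pass. Whether they were first reported from these samples is not given in the sources used here, so their directions are not independent evidence. Bin 10 of Stxbp5l, a syntaxin-binding protein of the secretory machinery, took 1.601%, 2.05% and 2.71% of the gene's reads in the wild type and 3.48%, 3.24% and 3.90% in the knockout (usage log2 fold change 0.70, SE 0.20). Bin 11 of Kif21a, a kinesin motor, had a value of 0.55 (SE 0.16), and in neither bin did the genotypes overlap. Bin 15 of Cask, a synaptic scaffold kinase, had shares of 1.20%, 1.28% and 1.19% against 0.720%, 0.707% and 0.736%, or -0.76 on the log2 scale (SE 0.28). That Cask bin was also without overlap, at 16 to 33 reads a library. Bin 24 of Dgkb, a diacylglycerol kinase, had a value of -0.39 (SE 0.18) and bin 10 of Enpp2, the lysophospholipase autotaxin, of -1.24 (SE 0.79). The Enpp2 value was -0.55 with the choroid plexus level as a covariate, and -0.35 without the choroid-rich knockout libraries 1 and 3. All 5 bins had an adjusted p near 1. All were without overlap, but each was picked as the bin of lowest p in its gene, which favours that. Over all reported targets, neurexins included, 30 of 291 bins lay without overlap, beside 16442 of 166154 tested bins. Of the bins tested in these genes, 32 in Stxbp5l, 38 in Kif21a, 39 in Cask, 25 in Dgkb and 32 in Enpp2, 0 were called. The median usage change of each gene's bins was between -0.02 (Dgkb) and 0.01, beside -0.01 over all tested bins.

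The 10 further bins with the lowest p whose genotypes did not overlap are a description only, beside 4.58% of all bins that lay without overlap upward and 5.31% downward. They were the Khdrbs3 bins 9 and 3, bin 6 of Tomm22 (-0.68, SE 0.13), bin 14 of Grik2 (0.78, SE 0.17), bin 9 of Tubg2 (-0.79, SE 0.17), bin 14 of Homer1 (-0.38, SE 0.09), bin 10 of Rpl3 (-1.10, SE 0.25), bins 16 and 17 of Myo10 (-1.55 and -1.61) and bin 14 of Phactr3 (-1.20). Tomm22 is a mitochondrial import receptor, Grik2 a kainate receptor subunit, Homer1 a postsynaptic scaffold, Rpl3 a ribosomal protein and Myo10 an unconventional myosin. Tomm22, Rpl3 and Myo10 lie on chromosome 15 with Khdrbs3. So do Enpp2 and Kif21a of the reported targets, at -14.0 and 21.8 Mb from it (minus for lower coordinates). Grik2 bin 14 passed without wild-type library 2 (adjusted p = 0.042), and so did Tubg2 bin 9 (adjusted p = 5.2e-04). Rpl3 bin 10 passed without knockout library 2 (adjusted p = 0.0029). With the choroid plexus level as a covariate Rpl3 bin 10 (adjusted p = 1.1e-06) and Tomm22 bin 6 (adjusted p = 0.0433) passed. In Rpl3 bin 10 the wild-type libraries held 170, 198 and 211 reads and the knockout libraries 84, 34 and 78, and the Myo10 bins held at most 18 reads in any library.

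At the level of whole genes, knockout values were higher for 15 of 22830 tested genes (0.0657%) and lower for 2 (0.00876%). An unadjusted p under 0.05 was found for 1914 (8.38%). The calls were the 3 KHDRBS genes, 7 mitochondrial genes, 2 other genes on chromosome 15, and 5 others. Without knockout library 2, 53 genes were higher, and the genes lower numbered 6 without wild-type library 1, 8 without wild-type library 3 and 1 without wild-type library 2, knockout library 1 or knockout library 3. Without the mitochondrial genes in the table, the calls were Khdrbs1, Khdrbs2, Khdrbs3 and H2-Q2. The larger number under DESeq2, 77 higher and 40 lower, held 15 of the 17 genes, H2-Q2 and Slc16a8 having no adjusted p there.

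**Figure D3:**
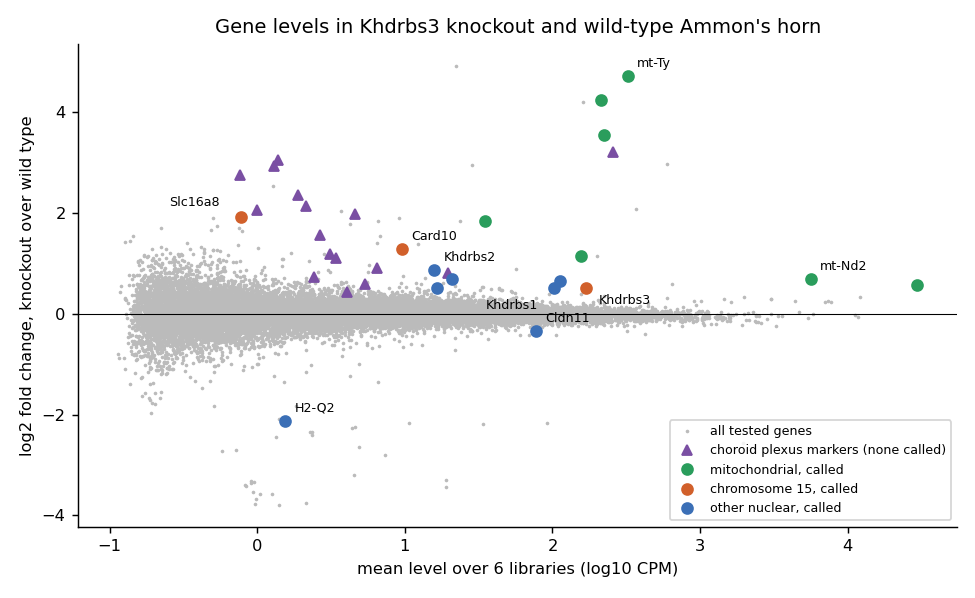
Log2 fold change of each of 22830 tested genes (y axis) against its mean level (log10 CPM, x axis), knockout over wild type. Called genes are large circles coloured by place (mitochondrial, chromosome 15, other), and the 16 choroid plexus markers, none of them called, are triangles, all above 0.

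The called nuclear genes outside the family and chromosome 15 were H2-Q2, Cldn11, Rpl3-ps1, Gm12816 and Mc2r. H2-Q2, a class I histocompatibility gene on chromosome 17, stood at 2.10, 2.55 and 2.92 CPM in wild-type and at 0.516, 0.652 and 0.568 CPM in knockout libraries. This 4.35-fold lower level (log2 fold change -2.12, SE 0.20, edgeR adjusted p = 0.0022) held its call in all 6 fits with 1 library left out, but not without both choroid-rich knockout libraries (-1.95, adjusted p = 0.0796). Only 9.88 exon-bin reads were found for every 100 gene counts of H2-Q2, and its exon-bin sums did not pass (-0.76, SE 0.62, adjusted p = 0.801). Near-identical class I genes share sequence with it, and how such reads were counted is not given in the sources used here. Of the other 14 class I and antigen-processing genes none was called. H2-T24 had the next lowest p of them, with 24.7, 24.8 and 27.1 CPM against 31.9, 31.7 and 33.7 CPM (0.34, SE 0.06, adjusted p = 0.170).

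Cldn11, the tight junction claudin of myelin, stood at 84.4, 84.2 and 90.1 CPM in the wild type and at 67.1, 67.7 and 69.8 CPM in the knockout. Its log2 fold change was -0.34 (SE 0.05, edgeR adjusted p = 0.0457) in the gene table and -0.36 (SE 0.05, adjusted p = 0.0462) in exon-bin sums. Without any 1 of the 6 libraries the gene-table value did not pass (edgeR adjusted p from 0.0783 without wild-type library 3 to 0.298 without knockout library 1), nor did it with the choroid plexus covariate (adjusted p = 0.202) or without both choroid-rich knockout libraries (adjusted p = 0.980).

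The remaining 3 calls rest on gene counts far larger than the exon-bin reads of the same genes. Rpl3-ps1, a processed pseudogene of Rpl3 on the X chromosome, was higher in the gene table, at 84.3, 88.3 and 90.7 CPM against 126, 161 and 125 CPM. It rose from 87.7 ± 3.22 to 138 ± 20.6 CPM (SD, n = 3 each; log2 fold change 0.65, SE 0.09) and in exon-bin sums by 2.81 (SE 0.19, adjusted p = 2.7e-05). Its exon bins held 127, 171 and 169 reads in the wild type and 866, 1527 and 773 in the knockout. The parent gene Rpl3 had lower values in the knockout (480, 473 and 500 CPM against 396, 308 and 386 CPM), as given with chromosome 15. Reads of a gene and of its near-identical pseudogene may have been split between them, which was not tested. The pseudogene Gm12816 had a value of 0.69 (SE 0.10) and Mc2r, the corticotropin receptor gene, of 0.51 (SE 0.07). They had 0.23 and 0.07 exon-bin reads for every 100 gene counts. Where in these records the other counts lie was not tested. Rpl3-ps1 and Gm12816 did not pass without each of the wild-type libraries or without knockout library 1 (adjusted p up to 0.140 and 0.208). Mc2r passed only without knockout library 2 among these 6 fits (adjusted p up to 0.276), and neither with the covariate (adjusted p = 0.198) nor without both choroid-rich knockout libraries (adjusted p = 0.980).

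Mitochondrial transcripts gave 7 of the 17 calls, all higher. The mitochondrial chromosome is transcribed as long precursors from which the tRNAs between the protein genes are excised. Of 22 mitochondrial tRNA genes, 19 had positive values (median log2 fold change 1.26, beside 0.0015 over all tested genes), 5 were called and 10 lay above the wild type in every knockout library, beside 6.83% of all genes. The largest called change was in mt-Ty, the tyrosine tRNA gene, at 22.1, 21.4 and 28.0 CPM in the wild type against 832, 572 and 478 CPM in the knockout (4.72, SE 0.20, edgeR adjusted p = 2.8e-06). It lies in a run of 5 tRNA genes between mt-Nd2 and mt-Co1, and both flanking genes were called too.

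In that run the neighbours differed in how the libraries behaved. Levels of mt-Tn were 26.7, 39.9 and 39.7 CPM against 476, 379 and 380 CPM (3.54, SE 0.15, adjusted p = 2.8e-06). Those of mt-Tw were 15.6, 15.03 and 15.6 CPM against 71.6, 56.9 and 35.2 CPM (1.83, SE 0.20, adjusted p = 0.0054). In mt-Tc (2.96, SE 0.86) and mt-Ta (2.08, SE 0.78) wild-type library 1 stood at 355 and 361 CPM, far above the other wild-type libraries at 20.3 to 33.1 CPM, and neither was called. Elsewhere, mt-Tq was called (4.23, SE 0.34, adjusted p = 6.6e-04), as was mt-Tl1 (1.14, SE 0.16, adjusted p = 0.0387). The call of mt-Tl1 was lost without wild-type libraries 1 or 3 or knockout libraries 1 or 3 (adjusted p up to 0.174), and without the last pair together (adjusted p = 0.157). The 2 ribosomal RNA genes had negative values, mt-Rnr1 -0.25 (SE 0.15) and mt-Rnr2 -0.08 (SE 0.11).

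Among the 13 mitochondrial protein genes 11 had positive values (median 0.25) and 2 were called. The complex I subunit gene mt-Nd2 stood at 4294, 4023 and 4663 CPM against 7153, 7066 and 6785 CPM (0.69, SE 0.06, adjusted p = 6.6e-04). The cytochrome oxidase gene mt-Co1 stood at 22840, 25448 and 23737 CPM against 38093, 37923 and 30292 CPM (0.56, SE 0.08, adjusted p = 0.0387), a call lost without each of the wild-type libraries or without knockout library 1 (adjusted p up to 0.208). The exon-bin counts went the other way: mt-Co1 had a value of -0.40 there (adjusted p = 0.242), and the bins that join mt-Nd2 with mt-Tw of -0.57 (SE 0.07, adjusted p = 0.0059). The bins that join mt-Nd1 with mt-Ti were also called lower there (-0.44, SE 0.05, adjusted p = 0.0079), while mt-Nd1 in the gene table was without overlap upward (0.23, SE 0.07, adjusted p = 0.391). The exon bins of mt-Ty and mt-Tl1 held 0 reads in the 6 libraries, where the gene table held 1167 to 49934 and 4079 to 14419. Those of mt-Tq held 2 reads and those of mt-Tn 17 over the 6 libraries together. The exon bins of these tRNA genes thus could not show the rise. The part of the tables' different counting in this result was not tested. Mitochondrial genes took 10.4% to 10.9% of gene counts in wild-type libraries and 11.1% to 14.1% in knockout libraries. Of 20 nuclear genes of oxidative phosphorylation 19 had negative values (median -0.07), with Cox6c lowest in p (-0.20, SE 0.05), and none was called.

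Genes near the targeted locus were set apart, since an allele carried through backcrossing keeps linked sequence. Within 10 Mb of Khdrbs3, 192 other genes were tested and 1 was called, Card10. Within 5 Mb 0 of 41 were called, and within 20 Mb 2 of 398, Card10 and Slc16a8, beside 0.0745% of all genes in either direction. Unadjusted p-values under 0.05 were found for 19.5%, 14.6% and 13.8% of the genes within 5, 10 and 20 Mb, for 9.31% on the rest of chromosome 15 and for 8.26% on the other chromosomes. Genotypes did not overlap in 14.6%, 14.6% and 16.1% of them, against 13.4% and 13.3%. The share of low p-values was thus larger near the locus, by a count with no test, and the median log2 fold change stayed at -0.02 in the 3 windows.

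Card10, a scaffold of NF-kappaB signalling 9.68 Mb from Khdrbs3 (78775138 to 78803042), stood at 6.31, 4.61 and 5.95 CPM in the wild type and at 9.96, 16.6 and 14.04 CPM in the knockout (log2 fold change 1.27, SE 0.18, edgeR adjusted p = 0.0387). Slc16a8, a monocarboxylate transporter 10.2 Mb away (79251014 to 79254761), stood at 0.417, 0.257 and 0.316 CPM against 1.32, 0.970 and 1.41 CPM (1.91, SE 0.27, adjusted p = 0.0387). The genotypes did not overlap in either gene. Card10 did not pass without wild-type libraries 1, 2 or 3 or knockout library 3 (adjusted p up to 0.174), and Slc16a8 passed only without knockout library 2 (adjusted p up to 0.274 in the other 5 fits). Slc16a8 also did not pass with the choroid plexus covariate (1.64, adjusted p = 0.112) or without both choroid-rich knockout libraries (1.57, adjusted p = 0.926). Neither passed in exon-bin sums (0.77 and 2.26, adjusted p = 0.212 and 0.242).

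Of the 8 further genes within 20 Mb with the lowest p, none was called. All were without overlap, beside 6.83% of all genes upward and 6.51% downward. Picking genes by lowest p in these libraries favours that, so it tells nothing of the region. Higher values were found for Lgals2, a galectin (0.303, 0.314 and 0.266 CPM against 0.800, 0.763 and 0.568 CPM), Jrk (0.38, SE 0.08, on the log2 scale) and Poldip3 (0.23, SE 0.05). Lower values were found for Ptp4a3, a phosphatase (29.6, 31.3 and 29.6 CPM against 22.9, 19.1 and 24.5 CPM), Rpl3 (-0.41, SE 0.09), Lynx1, a modulator of nicotinic receptors (-0.34, SE 0.07), Gm2991 (-1.05, SE 0.26) and Tst, a sulfurtransferase (-0.30, SE 0.07). Card10, Lgals2, Slc16a8, Rpl3 and Tst lie between 9.31 and 10.98 Mb from Khdrbs3, on the same side. Tested genes are dense there, with 130 at 5 to 10 Mb and 118 at 10 to 15 Mb, against 21 and 34 on the other side. Of the 130 and the 118, 13.8% and 13.6% had an unadjusted p under 0.05. In exon usage, 0 of the 2836 bins within 20 Mb outside Khdrbs3 was called, and 2.15% had an unadjusted p under 0.05, beside 1.70% on other chromosomes.

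**Figure D4:**
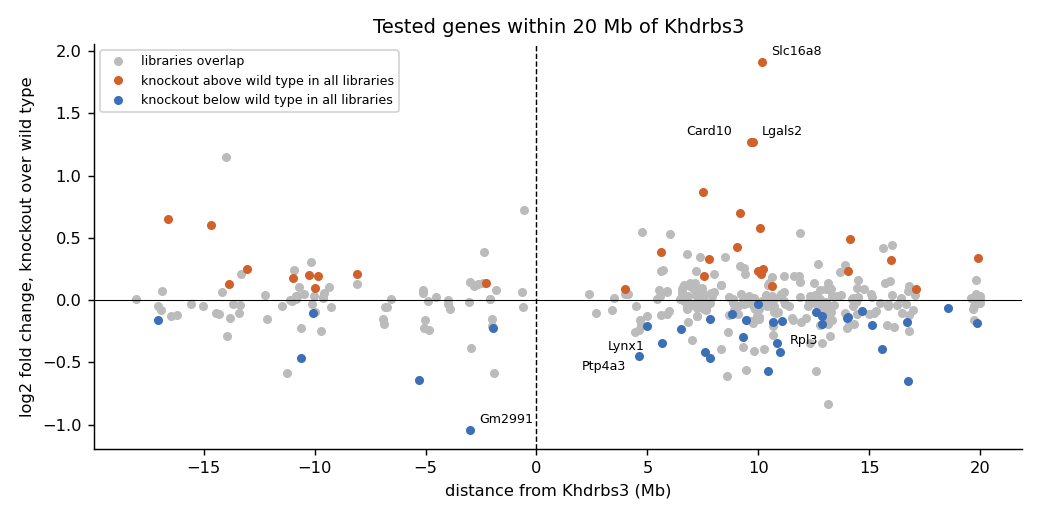
Log2 fold change, knockout over wild type (y axis), of the 398 tested genes within 20 Mb of Khdrbs3 against their distance from it (Mb, x axis, dashed line at 0). Coloured points are genes whose 3 knockout libraries all lie above (30 genes) or all below (34 genes) the wild type.

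Choroid plexus transcripts were set apart as well, because they differed between libraries of 1 genotype. The choroid plexus is the epithelium that makes cerebrospinal fluid and lies in the ventricle along the edge of the hippocampus. Ttr, the transthyretin of that epithelium, stood at 125, 21.6 and 5.63 CPM in the wild type and at 723, 2.81 and 667 CPM in the knockout. Folr1, a folate receptor, stood at 2.08, 1.20 and 0.814 CPM against 5.56, 0.700 and 5.68 CPM. Kl, the klotho gene, stood at 17.4, 12.7 and 12.6 CPM against 29.9, 13.3 and 31.8 CPM, and Otx2, a homeobox factor, at 0.606, 0.328 and 0.233 CPM against 2.53, 0.397 and 1.84 CPM. In each of these, knockout libraries 1 and 3 were above every wild-type library and knockout library 2 was not.

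All 16 markers were tested and had positive values (median log2 fold change 1.76), from 0.42 (Calml4) to 3.20 (Ttr). None was called, and 1, Calml4, was without overlap, beside 6.83% of all genes upward. Their summed level was 38.7 to 170.5 CPM in the wild type and 37.9 to 826 CPM in the knockout, and no marker was at 0 throughout. With the mean marker level as a covariate the median became 0.06, and without knockout libraries 1 and 3 it was -0.46. Both settings were defined by these same markers, so a fall of their median was built in and tests nothing. More choroid plexus cells and more RNA per cell cannot be told apart in tissue libraries, here or in the cell types below. Enpp2, itself a reported target of KHDRBS3, stood at 153, 118 and 105 CPM against 343, 114 and 376 CPM, high in the same 2 libraries as Ttr.

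**Figure D5:**
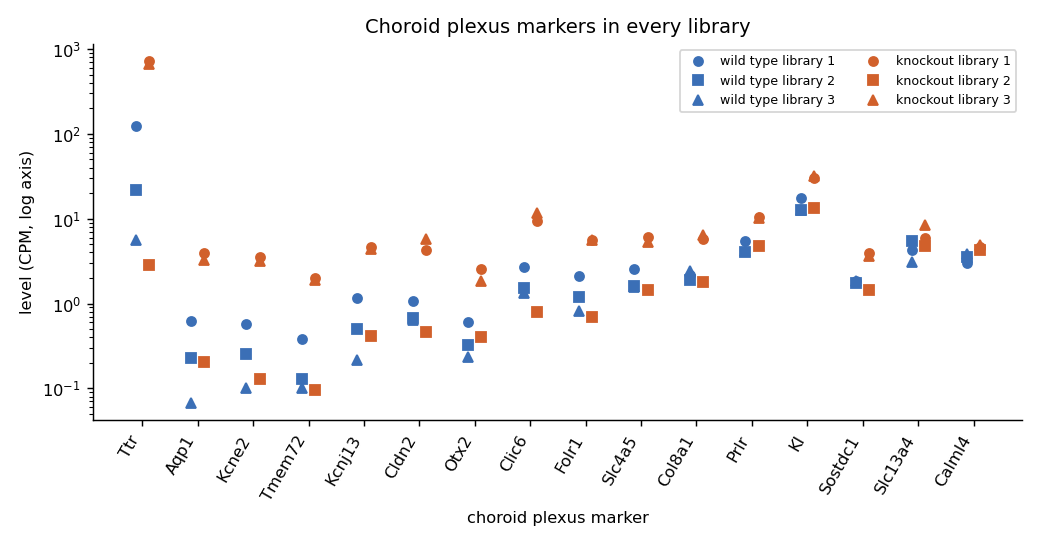
Level (CPM, log y axis) of the 16 choroid plexus markers (x axis, by falling log2 fold change) in each library, with a symbol for each library number and a colour for each genotype. For Ttr, knockout libraries 1 and 3 are at 723 and 667 CPM and knockout library 2 at 2.81 CPM, the lowest of the 6.

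Among 110 genes at least 2-fold higher in the knockout, 30 were at least 2-fold lower in knockout library 2 than in both other knockout libraries. Without libraries 1 and 3, 57 of the 110 were still at least 2-fold higher and 30 were not higher at all. Only 7 of the 110 were called, and 51 were without overlap, beside 6.83% of all genes. These genes were picked by fold in the same libraries, which favours such a count. Of 93 genes at least 2-fold lower, 29 stood in wild-type library 1 at least 2-fold above each of the other 5 libraries, 27 were small noncoding RNA genes, and 65 were still at least 2-fold lower without that library. H2-Q2 was the only called gene among the 93, and 42 were without overlap, beside 6.51% of all genes. Whether the choroid-rich tissue has a part in the values of the other genes was not tested.

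Markers of microglia and oligodendrocytes had mostly negative values. All 14 microglial markers were negative (median -0.19), 8 were below the wild type in every knockout library, beside 6.51% of all genes, and none was called. Tmem119 stood at 19.2, 21.2 and 22.2 CPM against 16.3, 16.3 and 15.8 CPM (-0.37, SE 0.07, adjusted p = 0.230). Fcrls (-0.36, SE 0.07), C1qb (-0.27, SE 0.06) and C1qa (-0.23, SE 0.06) followed, while Cx3cr1 (-0.01, SE 0.05) and P2ry12 (-0.02, SE 0.06), also markers of microglia, had values near 0.

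Of 14 oligodendrocyte markers, 13 were negative (median -0.18), 6 were without overlap downward, beside 6.51% of all genes, and 1, Cldn11, was called, beside 0.00876% called lower. Mbp, the myelin basic protein, stood at 2169, 2070 and 2004 CPM against 1765, 1692 and 1851 CPM (-0.23, SE 0.05, adjusted p = 0.289). Cnp (-0.18, SE 0.05) was also without overlap. Of 7 markers of oligodendrocyte precursors 5 were negative (median -0.13). Olig1 (-0.17, SE 0.05) and C1ql1 (-0.23, SE 0.13) were without overlap downward, again beside 6.51% of all genes. Of 13 astrocyte markers 5 were positive (median -0.03).

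Neuronal groups had medians nearer to 0. Of 15 interneuron markers 11 were positive (median 0.08), beside 50.5% of all genes, and 5 were without overlap upward, beside 6.83%, with none called. Reln, the secreted reelin, stood at 55.1, 55.3 and 55.8 CPM against 63.1, 62.6 and 63.2 CPM (0.18, SE 0.04, adjusted p = 0.332). With the choroid plexus covariate the median of this list was 0.03, and without knockout libraries 1 and 3 it was -0.01. Of 8 CA1 markers 6 were negative (median -0.11). Fibcd1 was below the wild type in every knockout library (-0.24, SE 0.06, adjusted p = 0.347), as was Mpped1 (-0.09, SE 0.05), beside 6.51% of all genes. In every knockout library 1 other marker of the list was above the wild type, beside 6.83%. Markers of CA2 and CA3 pyramidal cells had a median of -0.03 with 5 of 11 positive, and those of dentate granule cells one of -0.06 with 2 of 8 positive, which turned to 0.06 with the choroid plexus covariate and to 0.12 without knockout libraries 1 and 3. For other tissue that a dissection could hold, the medians were 0.12 (thalamus and habenula, 8 of 9 positive), 0.07 (ependyma, 5 of 9), 0.04 (meningeal fibroblasts, 5 of 9) and -0.05 (endothelial and mural cells, 3 of 11), with none called. With the covariate the thalamus and habenula median turned to -0.02, and without knockout libraries 1 and 3 it was 0.0039. The meningeal median turned to -0.11 and -0.13 under these settings.

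Among lists tied to the function of KHDRBS3 and the synapse, none of the members outside the KHDRBS family was called at gene level. Of 35 other splicing regulators 26 were positive (median 0.03), and Elavl1 had the lowest p (0.18, SE 0.06, adjusted p = 0.470). Neurexin ligands and synaptic adhesion genes had a median of 0.0021 (14 of 26 positive), and Nxph1, a neurexin ligand, stood lowest in p (0.15, SE 0.06). Of 15 ionotropic glutamate receptor genes 12 were positive (median 0.05), beside 50.5% of all genes. Among them Gria4 (0.15, SE 0.05) and Grik1 (0.28, SE 0.10) were without overlap upward, beside 6.83% of all genes. In exon-bin sums, tested for 11 of the 15, the median was -0.0017. GABA-A receptor subunits had a median of 0.02 (8 of 12 positive) and synaptic vesicle genes one of -0.0035 (9 of 20 positive), which turned to 0.04 both with the choroid plexus covariate and without knockout libraries 1 and 3. The early genes induced by neuronal activity had a median of 0.04 (9 of 14 positive).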

How the data were processed

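The table the authors deposited holds raw counts per GENCODE M2 gene record (38924 records, introns included), and their file for each library holds raw counts in 359565 exon bins. Per the submitters' processing notes the build is mm10. Per the submitters' processing notes, Trim Galore 0.3.5, TopHat2 2.0.8b, bedtools 2.17.0 and DESeq2 1.0.19 were used, with no role given. Whether counting used strand is not given in the sources used here, so antisense and overlapping genes cannot be told apart. From these counts, levels were computed as TMM-scaled CPM and tested with edgeR 4.0.16 (R 4.3.3; quasi-likelihood F test, filterByExpr, Benjamini-Hochberg over all tested genes, adjusted p under 0.05, two-sided). The usage test was diffSpliceDGE of the same package, on bins with at least 10 reads in 3 libraries in genes with at least 2 such bins. Reads in no bin (3.52% to 4.20%) or in several (1.73% to 2.01%) were left out. Fold changes are knockout over wild type. Bin coordinates were rebuilt from GENCODE M21 annotation of the same build for 16230 genes of the same version and 9977 of another version. The scripts were tested on simulated data. Alternatives were RLE scaling, DESeq2 1.42.0, limma-voom (limma 3.58.1), no low-count filter, other bin filters, exon-bin sums, no mitochondrial genes, the mean log2 CPM of choroid plexus markers as a covariate, and leaving out libraries. Leaving out both choroid-rich knockout libraries together was added after seeing the data. Named were the KHDRBS family, all called genes and bins, the lowest-p bin of each reported target, 10 further bins without overlap, called and 8 further genes near Khdrbs3, and up to 4 members of each list by lowest p. Ttr, Folr1, Kl, Calml4, Cx3cr1, P2ry12, Prox1, the single mitochondrial genes that were not called, and the genes high in 1 library were named after their values were seen. The members, lists and rules were chosen with earlier results of these data known. Gene-level spread between replicates, the biological coefficient of variation, was 10.6%. Some items, 1 called bin among them, are not reported here. The dentate gyrus library entered no comparison.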

Additional observations from a re-analysis of the deposited data

Results flagged for a closer look

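The wild-type dentate gyrus library, which no comparison used, had a larger share of reads in the called bins of Nrxn2 and Nrxn3 than any wild-type Ammon's horn library. Nrxn2 bin 44 took 3.66% of the gene's exon-bin reads there (375 reads), against 1.43% to 1.53% in wild-type Ammon's horn. Nrxn3 bin 34 took 1.13% (62 reads) against 0.750% to 0.903%. There is 1 dentate gyrus library and the difference was not tested. Khdrbs3 bin 2 took 10.98% there, just under the 11.04% to 11.67% of wild-type Ammon's horn.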

How the results depend on the processing

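No paired analysis was possible because nothing in the labels pairs a knockout library with a wild-type library. Of 15 genes higher and 2 lower, DESeq2 gave 77 and 40, limma-voom 9 and 1, exon-bin sums 5 higher, the table without mitochondrial genes 3 and 1, and the choroid plexus covariate 7 lower. Leaving out 1 library gave 10 to 53 higher and 1 to 8 lower genes, the 53 without knockout library 2 and the 8 without wild-type library 3. Without both choroid-rich libraries, 23 genes were higher, and the lone knockout library was assumed to vary like the wild type. For bins, 4 used more and 1 less, the covariate gave 7 and 5, limma-voom 2 less, and the fit without both choroid-rich libraries 7 and 4. Leaving out 1 library gave 4 to 7 used more and 1 to 2 used less. Khdrbs3 bin 2 was not tested in the 3 fits without a wild-type library. The bins used less in those fits are others, Khdrbs3 bin 3 among them. Genes with changed usage numbered 5, against 10 with the covariate, 9 without both choroid-rich libraries and 5 to 8 with 1 library left out. Near Khdrbs3, the 1 called gene within 10 Mb became 3 with DESeq2, 2 with the covariate, 0 with limma-voom, exon-bin sums or without mitochondrial genes, 0 within 5 Mb and 2 within 20 Mb, and 0 to 1 with 1 library left out. The log2 fold change of mt-Co1 was -0.40 in exon-bin sums. RLE scaling, the other bin filters and no low-count filter kept each count within 1.5 times. The cause was not tested. The number of libraries and the bins' read counts limit what could be called.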
